A study of Mus musculus with 5 samples.

Results

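The circadian clock genes described here are *Arntl*, *Clock*, *Per1*, *Per2*, *Per3*, *Cry1*, *Cry2*, *Nr1d1*, *Nr1d2* and *Dbp*, chosen by name and read as rows of the deposited count table. All 10 had a row among the 30046 features counted. Of these 10 genes, 9 passed a filter on low counts, which asked for 10 or more CPM (counts scaled to the library total) in 2 or more of the 5 libraries, and *Dbp* did not.

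The molecular clock is a loop of transcription factors that turns about once a day in almost every cell. CLOCK and BMAL1, the product of *Arntl*, bind E-box sequences together and switch on the *Per*, *Cry*, *Nr1d1*, *Nr1d2* and *Dbp* genes, and PER and CRY proteins then enter the nucleus and block them. The receptors REV-ERBα and REV-ERBβ, made from *Nr1d1* and *Nr1d2*, repress *Arntl*, whereas ROR receptors activate it through the same element, so that *Arntl* RNA peaks when *Nr1d1*, *Dbp* and *Per* RNA are low. DBP drives a further set of genes through D-box sequences. In bone marrow, the release of blood cells and the *Cxcl12* RNA of stromal cells are known to follow a daily rhythm that nerves convey.

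The data are bulk RNA-seq of CXCL12-abundant reticular (CAR) cells, the perivascular stromal cells of the marrow, sorted as Cxcl12-GFP-high tdTomato+ cells from mouse femurs at postnatal day 21 after 1 tamoxifen pulse at embryonic day 12.5. Dlx5CE-E12.5 cells came from Cxcl12(GFP/+); Dlx5(CreER/+); R26R(tdTomato/+) mice, in which the *Dlx5* driver marks the fetal perichondrium (3 libraries, replicates 1, 2 and 3), and Fgfr3CE-E12.5 cells came from Cxcl12(GFP/+); Fgfr3-iCreER; R26R(tdTomato/+) mice, in which the *Fgfr3* driver marks fetal chondrocytes (2 libraries, replicates 2 and 3). Both groups carry 1 *Cxcl12* allele replaced by GFP, distal growth plates were removed, and cells of several littermates were pooled. Total counts were 32563758, 22035650 and 27135553 in Dlx5CE-E12.5 replicates 1, 2 and 3, and 56355203 and 58166285 in Fgfr3CE-E12.5 replicates 2 and 3. The hour at which the femurs were taken is not given in the sources used here, so that for genes with a daily rhythm a difference between lineages or between libraries cannot be told apart from one of hour. Mice of both sexes were used without a split of the data by sex. Under the published methods the lineages were read on different sequencers with different read lengths, while the sample labels name 1 sequencer for every library, so lineage, sequencer and read length cannot be told apart.

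Libraries of the same lineage differed from each other. Replicate 1 of Dlx5CE-E12.5 cells lay a median of 0.20 (absolute log2 difference over 10088 genes) from the mean of replicates 2 and 3, where replicates 2 and 3 lay 0.13 from each other. In Fgfr3CE-E12.5 cells this median was 0.27 between the replicates, and replicate 3 had 2.11 times the summed leukocyte marker RNA and 2.47 times the summed neutrophil marker RNA of replicate 2. Each count of genes called at the filter of 10 CPM was therefore also taken without each library in turn, with the filter applied to the libraries left. Counts of marker genes called at a lower filter were taken with all libraries only.

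To show where the loop can act on its own genes, promoter sequences from RefSeq (GRCm38.p6, from 250 bases before to 50 bases after each start) were searched on both strands for the E-box CACGTG, the related E-box CACGTT, the D-boxes TTATGTAA and TTACGTAA, the core of the ROR and REV-ERB element TAGGTCA and the cAMP element TGACGTCA. The table held 13 starts for 9 of the 10 genes, all but *Per2*. *Per1*, *Cry1*, *Cry2* and *Nr1d1* held 1 or both of these E-boxes, *Per3* held 2 D-boxes, *Arntl* held a ROR element core just after its 2nd start, and no listed motif was found in the windows of *Clock*, *Nr1d2* and *Dbp*. Of all 32851 promoters, 7.15% held CACGTG, 4.68% held CACGTT, 0.938% held TTATGTAA, 0.119% held TTACGTAA, 2.61% held TAGGTCA and 1.79% held TGACGTCA. CACGTG, TTACGTAA and TGACGTCA are their own reverse complements, CACGTT reads AACGTG on the other strand, and no motif found shares bases with another. A match describes the letters and not a bound site. In GENCODE M21 the *Cry1*, *Cry2* and *Nr1d1* stretches lie outside any gene, that of *Per1* lies in an intron of a longer *Per1* transcript, that of *Per3* lies upstream of *Per3* and in an intron of *Camta1*, and the *Arntl* run lies in an untranslated first exon. The stretches that hold the matches are given 5′ to 3′ on the strand of the gene, with matches in capitals:
Per1, chr11:69098736-69098835, plus strand, CACGTG 166 bases before the start: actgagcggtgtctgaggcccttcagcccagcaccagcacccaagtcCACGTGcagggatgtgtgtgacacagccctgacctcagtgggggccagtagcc
Cry1, chr10:85185072-85185171, minus strand, AACGTG 79 bases and CACGTG 60 bases before the start: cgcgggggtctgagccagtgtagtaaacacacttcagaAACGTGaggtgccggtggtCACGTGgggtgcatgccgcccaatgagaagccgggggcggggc
Cry2, chr2:92434183-92434282, minus strand, AACGTG 166 bases before the start: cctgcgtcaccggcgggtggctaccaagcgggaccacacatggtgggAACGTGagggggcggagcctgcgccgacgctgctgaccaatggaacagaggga
Nr1d1, chr11:98775378-98775477, minus strand, AACGTG 28 bases before the start: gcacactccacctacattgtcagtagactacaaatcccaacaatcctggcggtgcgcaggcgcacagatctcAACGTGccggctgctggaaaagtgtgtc
Per3, chr4:151044794-151044893, minus strand, TTATGTAA 205 bases and 158 bases before the start: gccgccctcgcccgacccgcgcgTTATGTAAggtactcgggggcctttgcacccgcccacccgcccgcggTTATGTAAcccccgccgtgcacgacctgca
Arntl, chr7:113207529-113207558, plus strand, a run of 30 bases after the 2nd start: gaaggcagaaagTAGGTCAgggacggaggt

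The first comparison asked which clock genes differed between CAR cells of the Dlx5 and Fgfr3 lineages. *Cry2*, *Nr1d1*, *Per1*, *Clock*, *Nr1d2* and *Per3* were lower in Fgfr3CE-E12.5 cells by 2.61 to 4.84-fold, whereas *Arntl*, *Per2*, *Cry1* and *Dbp* did not pass the test. Of the 9 genes that passed the filter, 6 were called higher in Dlx5CE-E12.5 cells (by edgeR, with an adjusted p under 0.05 and a log2 fold change of more than 1 either way), against 13.1% of all 10088 genes tested. The number called higher in Fgfr3CE-E12.5 cells was 0 of 9, against 16.4% of all genes, and it was also 0 at an unadjusted p under 0.05, by DESeq2 and by edgeR's exact test. By the adjusted p alone the counts were the same 6 and 0, with backgrounds of 23.4% and 25.0%. The median log2 fold change (Fgfr3CE-E12.5 over Dlx5CE-E12.5) of the 9 genes was -1.41, and that of all genes tested was 0.01. The libraries of the lineages did not overlap for 7 of the 9 genes, against 68.9% of all genes. Without Dlx5CE-E12.5 replicate 1 the count was again 6, and without any 1 of the other 4 libraries it was 5. In bulk RNA, fewer cells that express a gene and less of its RNA per cell cannot be told apart.

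**Figure D1:**
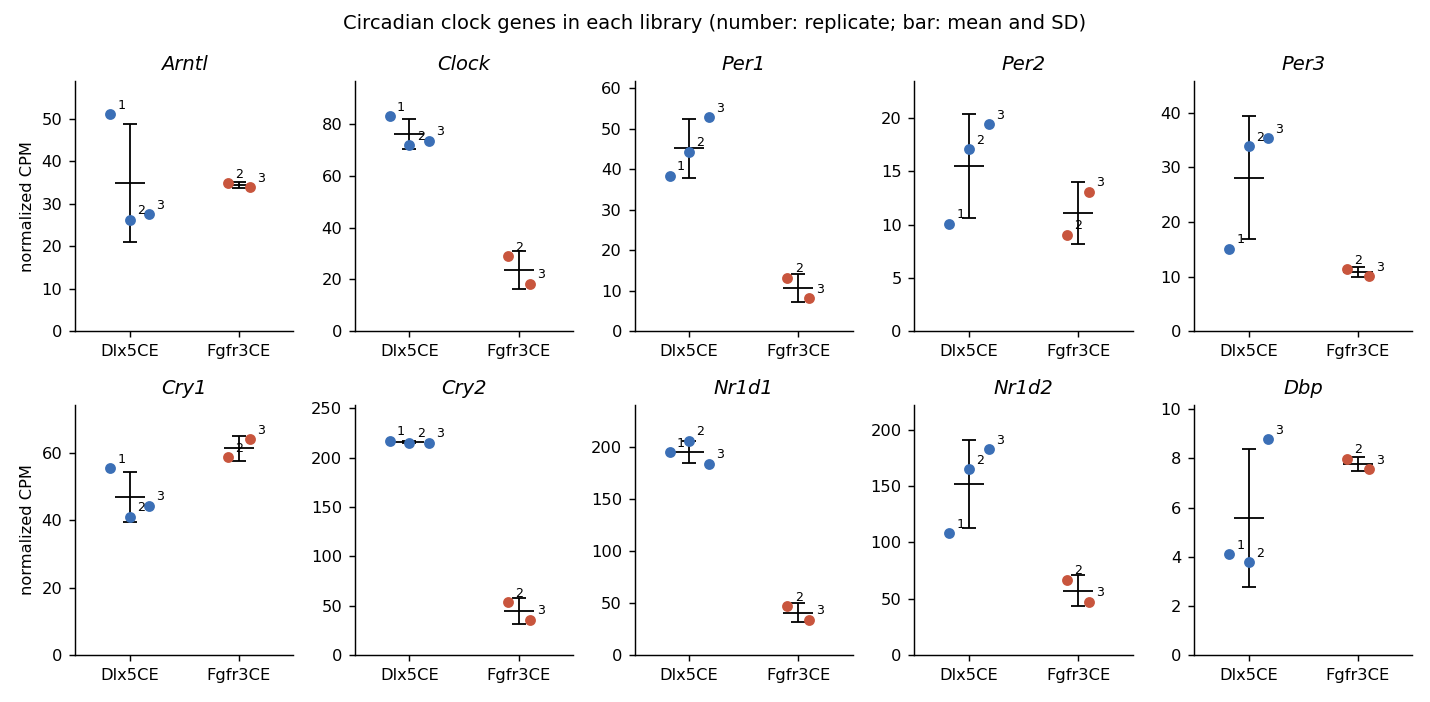
Normalized CPM (vertical axis, linear from 0) of the 10 clock genes in each library, with Dlx5CE-E12.5 cells in blue, Fgfr3CE-E12.5 cells in red, the replicate number beside each point and bars for the mean and SD of 3 and 2 libraries. Cry2 and Nr1d1 lie near 200 CPM in every Dlx5CE-E12.5 library and at 53.6 CPM or less in both Fgfr3CE-E12.5 libraries, while Arntl is highest in Dlx5CE-E12.5 replicate 1.

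Of the activators, *Clock* was lower in Fgfr3CE-E12.5 cells and *Arntl* was not separated by lineage. *Clock* (ENSMUSG00000029238, chr5:76209868-76304792) stood at 83.0, 72.0 and 73.7 normalized CPM in Dlx5CE-E12.5 replicates 1, 2 and 3 and at 29.0 and 18.4 in Fgfr3CE-E12.5 replicates 2 and 3. The 3 Dlx5CE-E12.5 libraries lay within a narrow band above both others, and the log2 fold change was -1.69 ± 0.22 (SE; adjusted p = 0.00111 by edgeR). *Arntl* (ENSMUSG00000055116, chr7:113207465-113314126) stood at 51.1, 26.3 and 27.5 CPM in Dlx5CE-E12.5 replicates 1, 2 and 3 and at 34.9 and 33.9 in Fgfr3CE-E12.5 replicates 2 and 3. Both Fgfr3CE-E12.5 values fell inside the range of the Dlx5CE-E12.5 values, which replicate 1 set at its upper end, and the log2 fold change was -0.02 with a 95% interval from -0.74 to 0.69 (adjusted p = 0.957 by edgeR). Without Dlx5CE-E12.5 replicate 1 the *Arntl* value was 0.36 (adjusted p = 0.124 by edgeR, and 0.124 to 0.975 over all alternatives), and it was also above 0 without either Fgfr3CE-E12.5 library, at 0.03 and 0.06.

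*Npas2*, a relative of *Clock* that can pair with BMAL1 in its place, moved the other way from *Clock*. It stood at 2.51, 3.96 and 5.49 CPM in the Dlx5CE-E12.5 libraries and at 20.3 and 14.5 CPM in the Fgfr3CE-E12.5 libraries. Its log2 fold change was 2.13 ± 0.36 (SE; adjusted p = 0.00303 by edgeR), and without either Fgfr3CE-E12.5 library it was under the filter. *Arntl2*, a relative of *Arntl*, had at most 1.98 CPM in any library and did not pass the test.

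Among the period genes, whose proteins form the inhibitory arm with the cryptochromes, *Per1* and *Per3* were lower in Fgfr3CE-E12.5 cells. *Per1* (ENSMUSG00000020893, chr11:69095217-69109960), whose E-box-bearing stretch is shown above, stood at 38.4, 44.3 and 52.9 CPM in Dlx5CE-E12.5 replicates 1, 2 and 3 and at 13.2 and 8.22 CPM in Fgfr3CE-E12.5 replicates 2 and 3. The lineages did not overlap, with a log2 fold change of -2.07 ± 0.27 (SE; adjusted p = 0.001 by edgeR). *Per3* (ENSMUSG00000028957, chr4:151003652-151044665), which carries the 2 D-boxes, stood at 15.1, 33.9 and 35.3 CPM and at 11.4 and 10.1 CPM in the same order. Dlx5CE-E12.5 replicate 1 lay closer to the Fgfr3CE-E12.5 libraries than to replicates 2 and 3, and the log2 fold change was -1.38 ± 0.38 (SE; adjusted p = 0.0211 by edgeR). The *Per3* call was lost without Dlx5CE-E12.5 replicate 2 or 3 or without Fgfr3CE-E12.5 replicate 2 or 3, with adjusted p-values by edgeR of 0.0635, 0.0553, 0.0767 and 0.117, and its log2 fold change was -1.69 without Dlx5CE-E12.5 replicate 1.

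*Per2* (ENSMUSG00000055866, chr1:91415982-91459324) did not pass the test. It stood at 10.1, 17.1 and 19.4 CPM in Dlx5CE-E12.5 replicates 1, 2 and 3 and at 9.04 and 13.1 CPM in Fgfr3CE-E12.5 replicates 2 and 3. The groups overlapped through Dlx5CE-E12.5 replicate 1, and the log2 fold change was -0.48 with a 95% interval from -1.28 to 0.31 (adjusted p = 0.27 by edgeR). It was -0.30 without Dlx5CE-E12.5 replicate 3, -0.17 without Fgfr3CE-E12.5 replicate 2, -0.72 without Dlx5CE-E12.5 replicate 1 or Fgfr3CE-E12.5 replicate 3, -0.28 by library size alone, -0.74 with the replicate block or the length trend removed, and -0.75 with the GC trend removed, and none of these passed.

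The cryptochromes, the repressors that bind CLOCK and BMAL1 directly, parted, in that *Cry2* was lower in Fgfr3CE-E12.5 cells and *Cry1* had a small log2 fold change above 0 that did not pass the test. *Cry2* (ENSMUSG00000068742, chr2:92403646-92434043) stood at 217, 215 and 215 CPM in Dlx5CE-E12.5 replicates 1, 2 and 3 and at 53.6 and 35.5 CPM in Fgfr3CE-E12.5 replicates 2 and 3. The Dlx5CE-E12.5 values had an SD of 1.10 around a mean of 216 CPM, and the log2 fold change was -2.28 ± 0.21 (SE; adjusted p = 2.5e-04 by edgeR). *Cry1* (ENSMUSG00000020038, chr10:85131700-85185064) stood at 55.4, 41.1 and 44.3 CPM and at 58.8 and 64.0 CPM in the same order. Both Fgfr3CE-E12.5 libraries lay above all 3 Dlx5CE-E12.5 libraries, yet the log2 fold change of 0.39 had a 95% interval from -0.01 to 0.79 (adjusted p = 0.0999 by edgeR, and 0.0219 to 0.799 over all alternatives). Without Dlx5CE-E12.5 replicate 1 it was 0.52 (adjusted p = 0.0372 by edgeR), short of the fold threshold. It was 0.60 by library size alone, 0.21 with the GC trend removed and 0.05 with the length trend removed (adjusted p = 0.0219, 0.311 and 0.799 by edgeR).

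*Nr1d1* and *Nr1d2*, the nuclear receptors that repress *Arntl*, were both lower in Fgfr3CE-E12.5 cells. *Nr1d1* (ENSMUSG00000020889, chr11:98767932-98775333) stood at 195, 206 and 184 CPM in Dlx5CE-E12.5 replicates 1, 2 and 3 and at 46.9 and 33.9 CPM in Fgfr3CE-E12.5 replicates 2 and 3. Its log2 fold change was -2.27 ± 0.18 (SE; adjusted p = 1.6e-04 by edgeR). *Nr1d2* (ENSMUSG00000021775, chr14:18204054-18239127) stood at 108, 165 and 183 CPM and at 66.8 and 47.4 CPM in the same order. Dlx5CE-E12.5 replicate 1 was again the lowest of its lineage, and the log2 fold change was -1.41 ± 0.27 (SE; adjusted p = 0.00506 by edgeR). *Nr1d1* shares 263 exonic bases (8.55% of its own) with *Thra* on the opposite strand, a thyroid hormone receptor gene, and whether counting used strand is not given in the sources used here. *Thra* stood at 66.2, 65.5 and 73.2 CPM in Dlx5CE-E12.5 cells and at 45.9 and 42.3 CPM in Fgfr3CE-E12.5 cells, with a log2 fold change of -0.63 ± 0.14 (SE; adjusted p = 0.00866 by edgeR).

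The ROR receptors compete with the REV-ERBs at the *Arntl* element. *Rora* stood at 180, 141 and 141 CPM in Dlx5CE-E12.5 cells and at 61.4 and 30.2 CPM in Fgfr3CE-E12.5 cells (log2 fold change -1.75 ± 0.31, SE; adjusted p = 0.00373 by edgeR). *Rorb* had counts of 35, 11 and 24 in Dlx5CE-E12.5 replicates 1, 2 and 3 and of 4 and 4 in Fgfr3CE-E12.5 replicates 2 and 3, under both filters on low counts.

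*Dbp* (ENSMUSG00000059824, chr7:45705088-45710203), a direct target of CLOCK and BMAL1 whose RNA swings widely over the day in many tissues, was low in every library. It stood at 4.11, 3.77 and 8.79 CPM in Dlx5CE-E12.5 replicates 1, 2 and 3 and at 7.98 and 7.56 CPM in Fgfr3CE-E12.5 replicates 2 and 3, from 126, 80, 221, 491 and 479 counts. Dlx5CE-E12.5 replicate 3 lay with the Fgfr3CE-E12.5 libraries, and in a fit with the filter lowered to 1 CPM the log2 fold change was 0.46 with a 95% interval from -0.52 to 1.44 (adjusted p = 0.405 by edgeR). It was 0.28, 0.24 and 0.95 without Dlx5CE-E12.5 replicate 1, 2 and 3 (adjusted p = 0.629, 0.714 and 0.0901 by edgeR), 0.70 by library size alone, -0.11 with the GC trend removed and 0.11 with the length trend removed. *Dbp* shares 539 exonic bases (18.0% of its own) with *Sphk2* on the opposite strand, which stood between 26.7 and 41.5 CPM, and without strand the reads of the shared bases cannot be told apart. Of the other D-box factors, *Nfil3*, a repressor at D-boxes and the most abundant of them, stood at 140, 148 and 234 CPM and at 198 and 149 CPM, a log2 fold change of 0.00 ± 0.26 (SE; adjusted p = 0.998 by edgeR). Neither of the 2 tested D-box factors passed the test.

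The next comparison set *Arntl* against genes of the opposite phase within each library, where the scaling of the library cancels. *Arntl* minus the mean of *Per1*, *Per2*, *Per3*, *Dbp*, *Nr1d1* and *Nr1d2*, on the log2(CPM + 0.5) scale, was 0.82, -0.57 and -0.77 in Dlx5CE-E12.5 replicates 1, 2 and 3 and 0.92 and 1.11 in Fgfr3CE-E12.5 replicates 2 and 3. By this mean, Dlx5CE-E12.5 replicate 1 lay near the Fgfr3CE-E12.5 libraries and apart from replicates 2 and 3 of its own lineage. The single genes did not all do so. In replicate 1, *Arntl* at 51.1 CPM exceeded every other library, and *Per1* and *Nr1d1* at 38.4 and 195 CPM lay with its own lineage. *Per2* and *Per3* at 10.1 and 15.1 CPM lay nearer the Fgfr3CE-E12.5 libraries, *Nr1d2* lay between the lineages, and *Dbp* lay with replicate 2. The means were -0.18 ± 0.87 (SD, n = 3) and 1.02 ± 0.13 (SD, n = 2), a difference of 1.19, and of 1.69 without Dlx5CE-E12.5 replicate 1. No test was made over these genes.

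Gene by gene, the ratio of *Arntl* to *Per1*, *Nr1d1* and *Nr1d2* separated the lineages, and its ratio to *Per2*, *Per3* and *Dbp* did not, where the ratio of *Arntl* to each of the 10087 other tested genes separated them for 43.2%. The log2 ratio of *Arntl* to *Nr1d1* was -1.92, -2.95 and -2.72 in Dlx5CE-E12.5 replicates 1, 2 and 3 and -0.42 and 0.00 in Fgfr3CE-E12.5 replicates 2 and 3. To *Per1* it was 0.41, -0.74 and -0.93 and then 1.37 and 1.98. To *Nr1d2* it was -1.07, -2.62 and -2.71 and then -0.93 and -0.48, with Dlx5CE-E12.5 replicate 1 next to the Fgfr3CE-E12.5 libraries. For *Per3* it was 1.72, -0.36 and -0.36 and then 1.57 and 1.70, so that replicate 1 exceeded both Fgfr3CE-E12.5 libraries. For *Per2* it was 2.28, 0.60 and 0.49 and then 1.89 and 1.34, again highest in replicate 1. The ratio to *Dbp* ran from 1.59 to 3.48 in Dlx5CE-E12.5 cells, around the Fgfr3CE-E12.5 values of 2.06 and 2.09. *Per1*, *Nr1d1* and *Nr1d2* are the denominators that the edgeR test called, together with *Per3*.

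**Figure D2:**
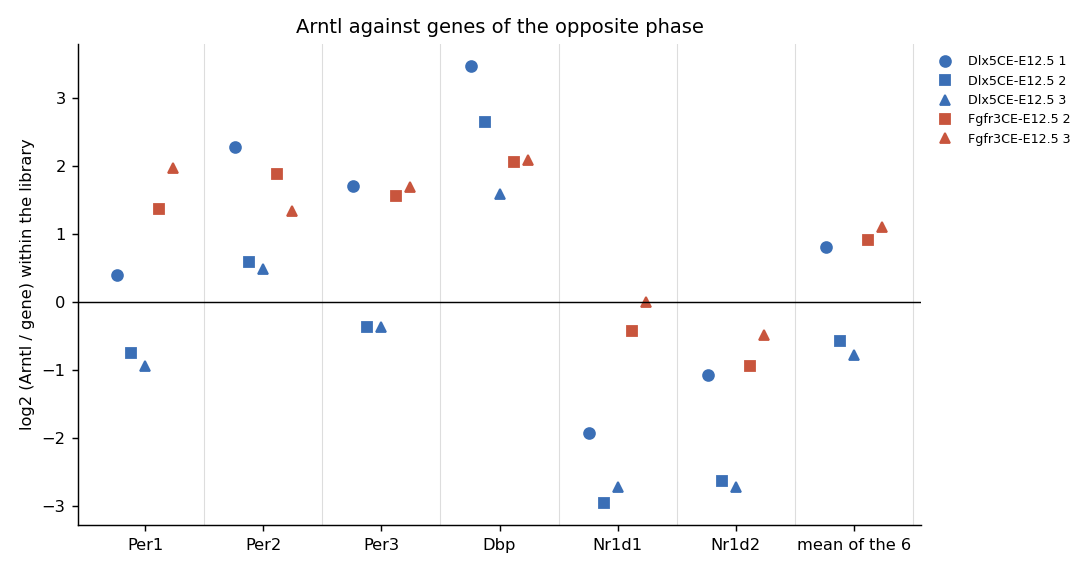
Log2 ratio of Arntl to each gene of the opposite phase within each library (vertical axis), from log2(CPM + 0.5), with the mean of the 6 at the right; colours give the lineage and shapes the replicate. Dlx5CE-E12.5 replicate 1 is the highest of its lineage in every column, by 1.49 over the mean of replicates 2 and 3 for the mean of the 6, and by 0.68 where the mean of Arntl, Clock and Npas2 stands in the place of Arntl. Every column shares Arntl, which by itself was 0.91 higher in replicate 1, so the columns are not independent.

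Within the Dlx5 lineage, the clock genes of replicate 1 departed from those of replicates 2 and 3 in opposite directions. *Arntl* was higher in replicate 1 than the mean of the other two by 0.91 on the log2 scale, a distance that 3.44% of the 10088 tested genes reached in either direction. *Per3*, *Per2* and *Nr1d2* were lower in replicate 1, with log2 differences of -1.17, -0.82 and -0.68, distances that 1.67%, 4.75% and 7.70% of the tested genes reached. *Dbp* and *Per1* had log2 differences of -0.45 and -0.33, which 18.2% and 29.2% of the tested genes reached, and replicate 2 lay as low as replicate 1 for *Dbp*. By contrast, *Cry2* and *Nr1d1* differed by 0.01 and 0.00, and *Clock* and *Cry1* by 0.19 and 0.37, distances that 53.0% and 24.4% of the tested genes reached. This is a comparison of 1 library with 2, with no test. The same library also had 2.48 times the summed B-cell marker RNA, 1.76 times the erythroid, 1.58 times the endothelial and 1.54 times the proliferation marker RNA of the mean of replicates 2 and 3, while its stromal marker RNA was 0.958 times theirs. The part of these markers in the departure was not tested.

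In Fgfr3CE-E12.5 cells, the clock genes that were low in the lineage were lowest in replicate 3, with *Per3* nearly level. The log2 differences, replicate 3 minus replicate 2, were -0.65 for *Per1*, -0.64 for *Clock*, -0.59 for *Cry2*, -0.49 for *Nr1d2* and -0.46 for *Nr1d1*, and 14.0% to 26.7% of the tested genes differed by as much. *Arntl*, *Dbp*, *Cry1* and *Per3* differed by -0.04, -0.07, 0.12 and -0.17, and *Per2* was higher in replicate 3 by 0.51.

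Between genes, levels were compared per length, as counts per kilobase of merged exons scaled to the same total in every library. In Dlx5CE-E12.5 cells *Nr1d1* stood highest at 173 ± 16.0 (SD, n = 3) on this scale, above *Cry2* at 93.1 ± 3.88 and *Nr1d2* at 76.9 ± 21.4, whose ranges overlapped each other. *Cry1* at 38.2, *Per1* at 21.9 and *Clock* at 15.1 followed, each apart from its upper neighbour. *Arntl* at 12.6, *Per3* at 8.06, *Per2* at 7.28 and *Dbp* at 5.05 closed the order, with ranges that overlapped from 1 gene to the next. In Fgfr3CE-E12.5 cells the order was led by *Cry1* at 61.0 ± 0.161 (SD, n = 2). *Nr1d1* at 43.9, *Nr1d2* at 35.3 and *Cry2* at 23.6 came next with overlapping neighbours, and *Arntl* at 15.2 lay apart from *Cry2* above and *Dbp* below. *Dbp* at 8.63, *Per1* at 6.38, *Per2* at 6.24 and *Clock* at 5.79 overlapped from neighbour to neighbour, and *Per3* was the lowest at 3.73. *Clock* thus stood above *Arntl* by its mean in Dlx5CE-E12.5 cells, with overlapping ranges, and below it without overlap in Fgfr3CE-E12.5 cells.

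Of 48 further clock pathway genes, 42 passed the filter, of which 8 were called higher in Dlx5CE-E12.5 cells and 5 higher in Fgfr3CE-E12.5 cells. Of those called, *Prkaa2* and *Zbtb16* reached the filter in Dlx5CE-E12.5 libraries alone, and *Npas2* and *Wee1* in Fgfr3CE-E12.5 libraries alone. The filter itself therefore favoured the direction of these genes. The backgrounds are 13.1% and 16.4%, and the median log2 fold change of the 42 genes was -0.23. With the length trend removed, 13 in place of 8 were called higher in Dlx5CE-E12.5 cells, with a background of 14.8%. By the adjusted p alone 15 and 8 passed, with backgrounds of 23.4% and 25.0%. Without Fgfr3CE-E12.5 replicate 3, the count called higher in Dlx5CE-E12.5 cells was 5 in place of 8 and that called higher in Fgfr3CE-E12.5 cells was 3 in place of 5 with 2 of the 5, *Npas2* and *Wee1*, then under the filter, in a fit that assumes that the single remaining Fgfr3CE-E12.5 library varies as the others do. Among 4 tested further repressors, *Tipin*, the partner of TIMELESS, lay at the fold threshold with a log2 fold change of 1.00 ± 0.13 (SE; adjusted p = 0.00115 by edgeR). It was called in 6 of 15 alternatives, with values from 0.81 with the length trend removed to 1.21 by library size alone, and it lay under 1 without Dlx5CE-E12.5 replicate 2 or 3 or Fgfr3CE-E12.5 replicate 3, at 0.99, 0.98 and 0.97. *Bhlhe40*, a repressor that competes for E-boxes and the most abundant of this list, had a log2 fold change of 0.40 ± 0.15 (SE; adjusted p = 0.0614 by edgeR, and 0.0365 without Fgfr3CE-E12.5 replicate 3), and of 0.03 with the length trend removed and 0.61 by library size alone (adjusted p = 0.874 and 0.0128 by edgeR).

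Genes that modify clock proteins went both ways, with 2 of 11 tested called higher in Dlx5CE-E12.5 cells and 1 higher in Fgfr3CE-E12.5 cells, against 13.1% and 16.4% of all genes tested. Without Fgfr3CE-E12.5 replicate 3 these counts were 1 and 2. *Csnk1e*, a kinase that phosphorylates PER proteins, stood at 15.6, 17.5 and 18.1 CPM in Dlx5CE-E12.5 cells and at 54.3 and 71.4 CPM in Fgfr3CE-E12.5 cells (log2 fold change 1.88 ± 0.18, SE; adjusted p = 2.8e-04 by edgeR). *Prkaa2*, a catalytic subunit of AMP-activated kinase, which phosphorylates CRY1, was lower in Fgfr3CE-E12.5 cells at 6.84 and 3.52 CPM, against 26.6, 25.8 and 28.0 CPM in Dlx5CE-E12.5 cells (log2 fold change -2.37 ± 0.32, SE; adjusted p = 0.00117 by edgeR). *Prkaa2* reached the filter through the Dlx5CE-E12.5 libraries alone. *Gsk3b*, another clock kinase, had a log2 fold change of -1.28 ± 0.20 (SE; adjusted p = 0.00219 by edgeR), and of -0.95 without Fgfr3CE-E12.5 replicate 3. *Ncor1*, a co-repressor of the REV-ERBs, and *Fbxw11*, a ligase subunit that recognises PER, passed the adjusted p alone, with log2 fold changes of 0.98 and 0.67 (adjusted p = 8.3e-04 and 0.0133 by edgeR). *Ncor1* passed both thresholds without Fgfr3CE-E12.5 replicate 3, at 1.09, by library size alone, at 1.18, with the length trend removed, at 1.29, and with all features, at 1.01, and the *Fbxw11* value had an adjusted p of 0.0618 without Dlx5CE-E12.5 replicate 2 and was 0.28 with the length trend removed (adjusted p = 0.208 by edgeR). *Fbxl21*, a ubiquitin ligase subunit gene with at most 3.00 CPM, had a log2 fold change of -2.39 ± 0.75 in the fit with the lower filter (SE; adjusted p = 0.0375 by edgeR), and the call was lost without Fgfr3CE-E12.5 replicate 2 or 3 (adjusted p = 0.136 and 0.0974 by edgeR), with the replicate block (0.0877) and with no filter (0.0571). Without Dlx5CE-E12.5 replicate 1 or 2 it was under the lower filter too, with 3.00, 1.08 and 0.994 CPM in Dlx5CE-E12.5 replicates 1, 2 and 3. *Nono*, a PER-associated protein gene and the most abundant of the list, had a log2 fold change of 0.13 ± 0.14 (SE; adjusted p = 0.465 by edgeR).

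Of 6 genes that the clock drives in many tissues, 1 was called higher in Fgfr3CE-E12.5 cells and 0 higher in Dlx5CE-E12.5 cells, against 16.4% and 13.1% of all genes tested. Without Fgfr3CE-E12.5 replicate 2 these counts were 0 and 1 of 5 tested. *Wee1*, a kinase that holds cells before mitosis, stood at 4.21, 5.56 and 6.56 CPM in Dlx5CE-E12.5 cells and at 35.1 and 30.5 CPM in Fgfr3CE-E12.5 cells (log2 fold change 2.59 ± 0.24, SE; adjusted p = 2.7e-04 by edgeR), and without either Fgfr3CE-E12.5 library it was under the filter. *Usp2*, a deubiquitinase gene, and *Tspan4* passed the adjusted p alone in the other direction, with log2 fold changes of -0.78 and -0.63 (adjusted p = 0.0125 and 0.0148 by edgeR). *Usp2* did not pass it without Dlx5CE-E12.5 replicate 3 (0.0562), nor did *Tspan4* without Dlx5CE-E12.5 replicate 2 or 3 or Fgfr3CE-E12.5 replicate 2 (0.0626, 0.0535 and 0.0738) or by library size alone (0.0585). Both were called with the GC trend removed, at -1.01 each, and *Usp2* also with the length trend removed, at -1.14. *Wee1* rose along with 5 of 8 proliferation markers called higher in Fgfr3CE-E12.5 cells, whose summed level was 527, 319 and 366 CPM in Dlx5CE-E12.5 replicates 1, 2 and 3 and 932 and 1030 CPM in Fgfr3CE-E12.5 replicates 2 and 3. The most abundant of these 8 was *Pcna* in Dlx5CE-E12.5 cells and *Mcm2* in Fgfr3CE-E12.5 cells, and the part of proliferation in the *Wee1* value was not tested.

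Glucocorticoids and cAMP can set the phase of peripheral clocks, and *Per1* is a direct target of both. Of 10 genes of the cAMP and immediate early response, 4 were called higher in Dlx5CE-E12.5 cells and 7 passed the adjusted p alone in that direction, against 13.1% and 23.4% of all genes tested, with a median log2 fold change of -1.04 over the 10. Without Fgfr3CE-E12.5 replicate 3 the number called was 2 in place of 4. *Junb*, an immediate early factor and the most abundant of the list by its mean over the libraries, stood at 2810, 3470 and 4790 CPM in Dlx5CE-E12.5 cells and at 1350 and 1240 CPM in Fgfr3CE-E12.5 cells (log2 fold change -1.51 ± 0.26, SE; adjusted p = 0.00335 by edgeR), while *Fos* was the most abundant in Dlx5CE-E12.5 replicate 1 and both Fgfr3CE-E12.5 libraries. The orphan receptor genes *Nr4a1*, *Nr4a2* and *Nr4a3* had log2 fold changes of -1.53, -1.11 and -1.56 (adjusted p = 0.00415, 0.00497 and 0.0312 by edgeR). The *Nr4a2* value was -0.84 without Fgfr3CE-E12.5 replicate 3 and -0.89 by library size alone, under the fold threshold, and *Nr4a3* did not pass without Dlx5CE-E12.5 replicate 1 or 3 or Fgfr3CE-E12.5 replicate 3, with adjusted p-values by edgeR of 0.0605, 0.0718 and 0.0654, or with the replicate block (0.0541). Its value was -2.50 without Fgfr3CE-E12.5 replicate 2 and -0.90 without Fgfr3CE-E12.5 replicate 3. *Creb1*, the cAMP-responsive factor, *Dusp1* and *Fos* passed the adjusted p alone, and they fell by 1.00, 0.88 and 0.70 on the log2 scale in Fgfr3CE-E12.5 cells (adjusted p = 0.00548, 0.0114 and 0.0443 by edgeR). *Creb1* lay at the fold threshold and was called in 9 of 15 alternatives, at -1.03 without Dlx5CE-E12.5 replicate 1 or 3 and -1.22 without Fgfr3CE-E12.5 replicate 2, against -0.69 without Fgfr3CE-E12.5 replicate 3 and -0.65 with the length trend removed. *Fos* did not pass the adjusted p without Dlx5CE-E12.5 replicate 1, 2 or 3 or Fgfr3CE-E12.5 replicate 3 (0.0768, 0.0586, 0.138 and 0.228), with a value of -0.43 in the last, nor did *Dusp1* without Fgfr3CE-E12.5 replicate 3 (0.064). *Fos* also did not pass by library size alone, with the replicate block and with all features (0.109, 0.13 and 0.0532), and *Dusp1* was called with the GC and the length trend removed, at -1.12 and -1.22. Immediate early RNA is also known to rise during cell dissociation, and its part in these values was not tested.

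Of 7 glucocorticoid response genes, 1 was called in each direction, against 13.1% of all genes tested called higher in Dlx5CE-E12.5 cells and 16.4% higher in Fgfr3CE-E12.5 cells. Without Dlx5CE-E12.5 replicate 1 or Fgfr3CE-E12.5 replicate 2, 2 of the 7 were called higher in Fgfr3CE-E12.5 cells. *Zbtb16*, a zinc finger gene that glucocorticoids induce, stood at 12.3, 24.4 and 33.7 CPM in Dlx5CE-E12.5 cells and at 3.43 and 1.28 CPM in Fgfr3CE-E12.5 cells (log2 fold change -3.32 ± 0.60, SE; adjusted p = 0.00397 by edgeR), with -4.12 without Fgfr3CE-E12.5 replicate 2 and -2.71 without Fgfr3CE-E12.5 replicate 3. *Zbtb16* too reached the filter through the Dlx5CE-E12.5 libraries alone. *Fkbp5*, which encodes a chaperone partner of the receptor and is also induced by glucocorticoids, went the other way, at 13.5, 16.8 and 19.7 CPM and then 35.1 and 44.4 CPM (log2 fold change 1.25 ± 0.21, SE; adjusted p = 0.00314 by edgeR). *Tsc22d3*, a 3rd induced gene, and *Nr3c1*, the receptor itself, passed the adjusted p alone with log2 fold changes of -0.67 and -0.50 (adjusted p = 0.0126 and 0.0316 by edgeR). *Tsc22d3* did not pass it without Dlx5CE-E12.5 replicate 2 or 3 or Fgfr3CE-E12.5 replicate 3 (0.0502, 0.0504 and 0.0608) and was called with the length trend removed, at -1.05. Nor did *Nr3c1* pass without Dlx5CE-E12.5 replicate 1, 2 or 3 or Fgfr3CE-E12.5 replicate 3 (0.0572, 0.0963, 0.0906 and 0.163), with a value of -0.26 in the last, by library size alone (-0.29, 0.155) or with the replicate block (0.0585). *Hsd11b1*, which regenerates active glucocorticoid, had a log2 fold change of 1.00 just under the threshold (adjusted p = 0.0246 by edgeR) and passed both thresholds without Dlx5CE-E12.5 replicate 1 or Fgfr3CE-E12.5 replicate 2, at 1.24 and 1.35, by library size alone, at 1.21, with the replicate block, at 1.22, and with all features, at 1.03. It did not pass the adjusted p without Dlx5CE-E12.5 replicate 2 or 3 or Fgfr3CE-E12.5 replicate 3, at 0.85, 0.92 and 0.70 (adjusted p = 0.0804, 0.0698 and 0.133 by edgeR), or with the length trend removed, at 0.61 (adjusted p = 0.109 by edgeR). *Errfi1*, the most abundant of the list, had a log2 fold change of -0.66 ± 0.28 (SE; adjusted p = 0.0884 by edgeR, and 0.0441 without Dlx5CE-E12.5 replicate 1), and of -0.33 without Fgfr3CE-E12.5 replicate 3, and it was called with the length trend removed, at -1.01.

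**Figure D3:**
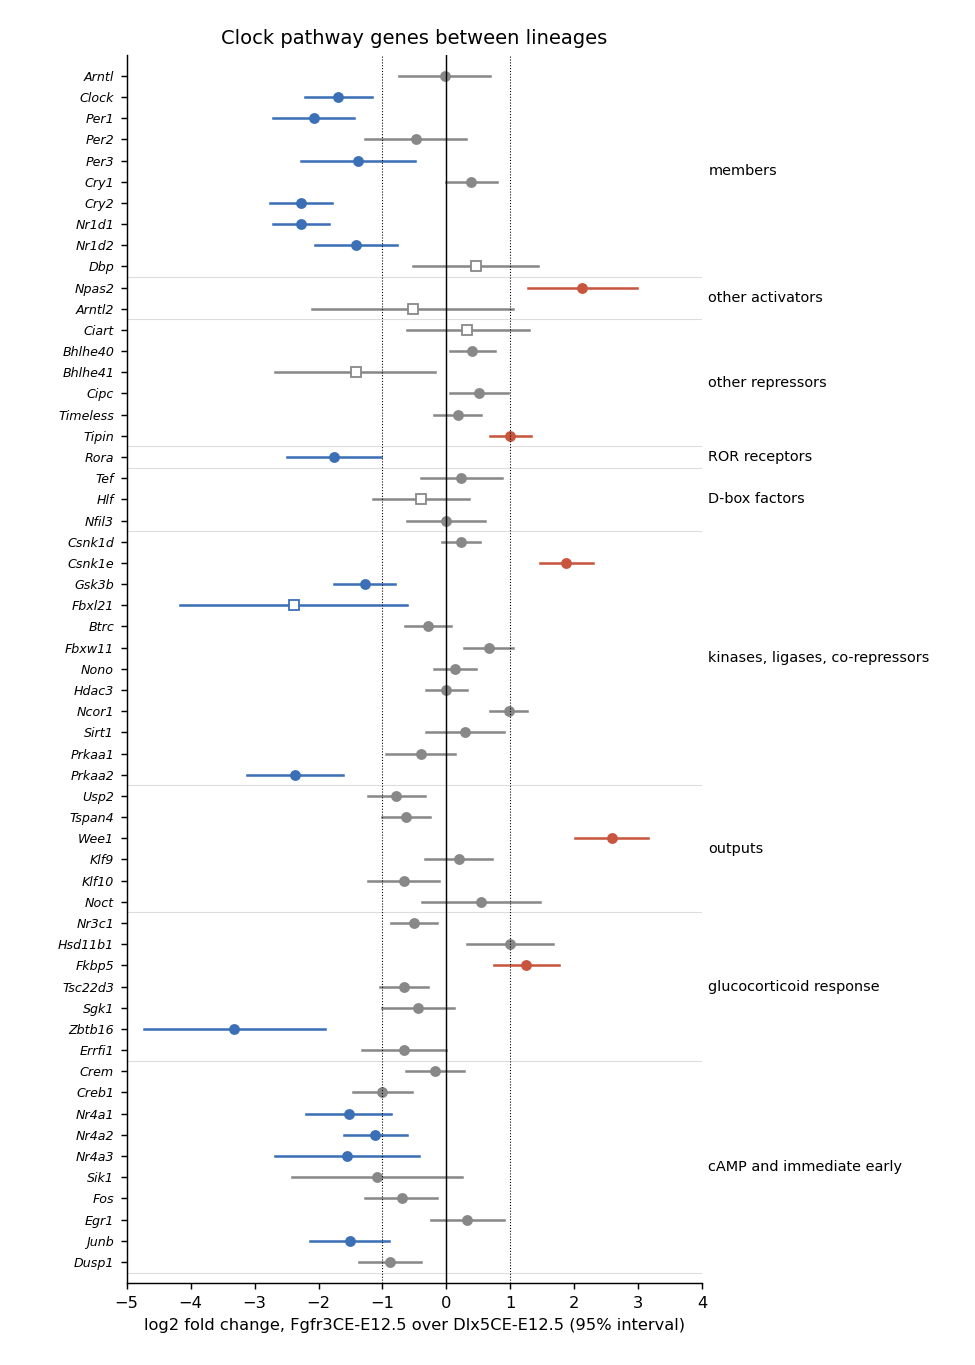
Log2 fold change of Fgfr3CE-E12.5 over Dlx5CE-E12.5 cells (horizontal axis) with its 95% interval for the 10 clock genes and the further clock pathway genes by list; blue and red mark genes called higher in Dlx5CE-E12.5 and in Fgfr3CE-E12.5 cells, grey the rest, open squares the fit with the lower filter, and dotted lines a log2 fold change of 1 either way. In the top block 6 of 10 genes are blue and none is red, and in the bottom block 4 of 10 are blue and none is red, while the kinase and glucocorticoid blocks hold both colours.

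Cell type markers moved with the lineage beside the clock genes. Of 8 markers of CAR stroma, 5 were called higher in Dlx5CE-E12.5 cells and 1, *Foxc1*, higher in Fgfr3CE-E12.5 cells, against 13.1% and 16.4% of all genes tested, and the most abundant was *Cxcl12*. Their summed level was 32300, 34200 and 33300 CPM in Dlx5CE-E12.5 replicates 1, 2 and 3 and 13100 and 8610 CPM in Fgfr3CE-E12.5 replicates 2 and 3, a ratio of means of 0.326. For comparison, the summed CPM of the 10 clock genes was 777, 824 and 844 and then 332 and 272, a ratio of 0.370. *Cry2*, *Nr1d1* and *Nr1d2* lead this clock sum in Dlx5CE-E12.5 cells, at means of 216, 195 and 152 CPM. *Arntl*, *Cry1* and *Dbp*, with log2 fold changes of -0.02, 0.39 and 0.46, did not fall with it. All 8 leukocyte markers and all 8 neutrophil markers were called higher in Fgfr3CE-E12.5 cells, and 6 and 5 without Fgfr3CE-E12.5 replicate 3. Summed leukocyte markers, led by *Arhgdib*, stood at 499, 446 and 387 CPM and then at 1230 and 2590 CPM. Neutrophil markers, led by *Ngp* in 4 of the 5 libraries, summed to 2570, 3060 and 2460 CPM and then to 6790 and 16800 CPM. In replicate 3 of Fgfr3CE-E12.5 cells, the library with less RNA of *Per1*, *Clock*, *Cry2*, *Nr1d1* and *Nr1d2*, the stromal sum was also the lower and the leukocyte and neutrophil sums the higher.

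The other marker lists did not all follow the same order of libraries. Their counts at the filter of 10 CPM stand against 13.1% of all genes tested called higher in Dlx5CE-E12.5 cells and 16.4% higher in Fgfr3CE-E12.5 cells. Chondrocyte markers, led by *Sox9* in Dlx5CE-E12.5 cells and by *Col2a1* in Fgfr3CE-E12.5 cells, summed to 133, 125 and 128 CPM in Dlx5CE-E12.5 replicates 1, 2 and 3 and to 3080 and 416 CPM in Fgfr3CE-E12.5 replicates 2 and 3, and *Acan*, *Col9a1* and *Matn3* were at 0 counts in at least 1 Dlx5CE-E12.5 library. *Col2a1* was called higher in Fgfr3CE-E12.5 cells and *Sox9*, the other chondrocyte marker that passed the filter, was not called. Without either Fgfr3CE-E12.5 library *Col2a1* was under the filter, and without Fgfr3CE-E12.5 replicate 2 *Sox9* was called higher in Dlx5CE-E12.5 cells, at -1.10. Osteoblast markers, led by *Col1a1* in 4 of the 5 libraries, summed to 5240, 4030 and 3730 CPM and then to 7220 and 9690 CPM, and 4 of 6 tested were called higher in Fgfr3CE-E12.5 cells, and 2 without Dlx5CE-E12.5 replicate 3. B-cell markers, led by *Cd79a*, summed to 199, 81.1 and 78.9 CPM and then to 197 and 360 CPM, with 1 of 3 tested called higher in Fgfr3CE-E12.5 cells, 3 without Dlx5CE-E12.5 replicate 1, and 0 without Dlx5CE-E12.5 replicate 2 or Fgfr3CE-E12.5 replicate 3. Erythroid markers, led by *Hbb-bs*, summed to 35900, 17500 and 23100 CPM and then to 13500 and 20000 CPM, with 2 of 6 called higher in Dlx5CE-E12.5 cells, and 1 without any 1 library but Dlx5CE-E12.5 replicate 2. Endothelial markers, led by *Pecam1*, summed to 33.3, 24.9 and 17.2 CPM and then to 23.4 and 30.8 CPM. The 1 tested, *Pecam1*, was not called (log2 fold change 0.94, adjusted p = 0.0504 by edgeR). Among the fits with 1 library left out, it was called only without Dlx5CE-E12.5 replicate 1, higher in Fgfr3CE-E12.5 cells. In the fit with the lower filter *Cdh5*, under 10 CPM in every library, was called higher in Dlx5CE-E12.5 cells (log2 fold change -2.01, adjusted p = 0.0485 by edgeR), and *Emcn*, *Kdr* and *Tek* were not called, at -0.31, -0.93 and 0.15. Of the other lists with markers under the filter, that fit called all 4 such chondrocyte markers, the 1 osteoblast marker and 1 of 2 B-cell markers higher in Fgfr3CE-E12.5 cells, against 16.6% of all genes in that fit. *Acan*, *Col9a1* and *Matn3* reached the lower filter through the Fgfr3CE-E12.5 libraries alone. Their direction was thus fixed by the filter, and the count of chondrocyte markers cannot be weighed against that share. The chondrocyte markers *Acan*, *Col9a1*, *Matn3* and *Comp* stood at 44.5, 32.1, 125 and 181 CPM in Fgfr3CE-E12.5 replicate 2. In replicate 3 they stood at 1.48, 3.38, 8.90 and 5.68 CPM, and *Comp* at 2.32, 4.57 and 4.34 CPM in Dlx5CE-E12.5 cells. The osteoblast and B-cell markers called, *Ifitm5* and *Vpreb1*, were instead higher in replicate 3. *Pax5*, the other B-cell marker of that fit, went the other way between lineages and was not called (log2 fold change -0.93, adjusted p = 0.207 by edgeR). The part of other cell types in the clock gene values was not tested.

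**Figure D4:**
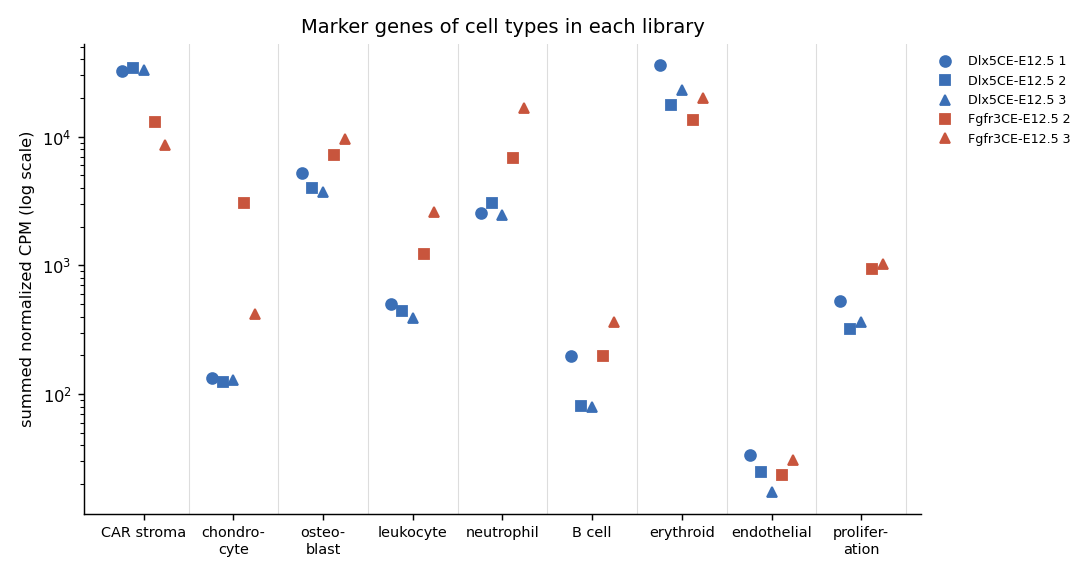
Summed normalized CPM of marker genes of each cell type (vertical axis, log scale) in each library; colours give the lineage and shapes the replicate. Stromal markers fall from 32300 or more in Dlx5CE-E12.5 cells to 13100 or less in Fgfr3CE-E12.5 cells, while leukocyte and neutrophil markers lie higher in both Fgfr3CE-E12.5 libraries.

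Lastly, the genes whose pattern over the 5 libraries was most like that of *Arntl* or *Dbp* were sought among the 10088 tested genes, by Euclidean distance of log2 CPM centred on each gene's mean. Nearest to *Arntl* were *Tmem106a*, *Ank3*, *Eya3*, *Gpam* and *Ttll1*, at distances of 0.09, 0.18, 0.23, 0.24 and 0.25. *Tmem106a* stood at 43.4, 21.3 and 22.0 CPM in Dlx5CE-E12.5 replicates 1, 2 and 3 and at 29.0 and 26.6 CPM in Fgfr3CE-E12.5 replicates 2 and 3, which repeats the high value of replicate 1. Nearest to *Dbp* were *Fbrsl1*, *Ccdc117*, *2310022B05Rik*, *Ipmk* and *Cox11*, at distances of 0.27, 0.29, 0.30, 0.30 and 0.31, which share with *Dbp* a high value in replicate 3 of Dlx5CE-E12.5 cells and in both Fgfr3CE-E12.5 libraries. With 5 libraries such likeness describes these libraries only.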

How the data were processed

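Per the labels and the submitters' processing notes, the authors aligned reads to mm10 with TopHat2 2.0.13 and Bowtie2 2.2.1, counted them per gene and deposited raw counts, which were used here. The authors also deposited rlog values on a log2 scale, made with DESeq2, used here as an alternative only. The SMART-Seq kit used to amplify the RNA does not mark strand, and the strand setting of counting is not given in the sources used here. Symbols, gene types and exon lengths came from GENCODE M21 on GRCm38, in which 29965 identifiers were found and 76 were not.

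Protein-coding genes and reporters entered at 10 or more CPM in 2 or more libraries, and edgeR 4.0.16 (R 4.3.3) was run on their counts (TMM, quasi-likelihood test, lineage as the 1 term, Benjamini-Hochberg adjustment over 10088 genes). Genes were called at an adjusted p under 0.05 with a log2 fold change of more than 1 either way, and genes under the filter were read from a fit filtered at 1 CPM. The standard error is the log2 fold change over the square root of its F statistic. CPM in the text is scaled by TMM. The floor of 3 counts is 0.0516 to 0.136 CPM and covers counting error only, as reads carry no molecular identifiers. The 4 pairs of libraries of the same lineage, which are separate pools, differed by more than counting noise, with a chi-square per degree of freedom of 16.8 or more. The fit was tested on simulated data.

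Named were the 10 clock genes, and genes of the other clock lists that passed the adjusted p or led their list by mean level over the libraries. Also named were *Arntl2* and *Rorb* as relatives of named genes, the nearest patterns, and protein-coding genes whose exons overlap those of 1 of the 10 clock genes. The clock genes and the lists were chosen with earlier results of these data known, and 2 more genes drawn up for them are not reported here, in counts or figures. Listed genes without a value in the text stand in the figure and the counts. Alternatives were DESeq2 size factors, library size alone, DESeq2 1.42.0's Wald test, edgeR's exact test, other filters, all features, a replicate block, trends on GC content and length removed, each library left out, and, for the ratios, other pseudocounts, rlog values and other gene choices.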

Additional observations from a re-analysis of the deposited data

How the results depend on the processing

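Under 15 alternatives for each gene (14 for *Dbp*), *Clock*, *Per1*, *Cry2*, *Nr1d1* and *Nr1d2* were called lower in Fgfr3CE-E12.5 cells in all 15, *Per3* in 11, and *Arntl*, *Per2*, *Cry1* and *Dbp* in 0. The number of clock genes called was 5 to 6 with 1 library left out and 6 otherwise. *Arntl*, which did not pass the test, changed sign with library size alone (0.19), all features (0.01), the replicate block (0.36) and libraries left out (-0.19 to 0.36), as did *Dbp* with the GC trend removed (-0.11), *Nfil3* with library size alone (0.21), all features (0.03) and libraries left out (-0.15 to 0.27), and *Nono* with the length trend removed (-0.25). None of these was called, and the cause was not tested. Of the further clock pathway genes, 8 were called higher in Dlx5CE-E12.5 cells, 13 with the length trend removed and 5 to 10 with 1 library left out, and 5 were called higher in Fgfr3CE-E12.5 cells, 3 to 6 with 1 library left out, and the cause was not tested. Of 413 values of the named ones among these genes under the alternatives, 363 kept their direction and stayed called or not called, of which 28 lost and 6 gained the adjusted p alone, 20 lost a call, 25 gained one and 5 changed sign.

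Over all tested genes the median log2 fold change was 0.01, and it moved to 0.22 with library size alone, to -0.17 with the GC trend removed and to -0.18 with the length trend removed. With each of these settings 6 clock genes were called higher in Dlx5CE-E12.5 cells. A shift of the median does not bound the shift of a single gene. The 1318 and 1653 genes called higher in Dlx5CE-E12.5 and Fgfr3CE-E12.5 cells became 1009 and 1985 with library size alone and 1695 and 1406 with the GC trend removed, and 997 in place of 1653 without Fgfr3CE-E12.5 replicate 3. The difference in the within-library ratio ranged from 0.89 to 1.69 with libraries left out and from 0.89 to 1.54 otherwise. The departure of Dlx5CE-E12.5 replicate 1, 1.49, was 1.13 with rlog values, which shrink low counts, 1.66 with the median of the 6 genes and 0.68 with the mean of *Arntl*, *Clock* and *Npas2*. The replicate numbers come from the labels and name separate pools, and deviations of same-numbered libraries correlated at 0.13 and -0.05 across genes, so they were not taken as pairs. With the replicate block, 6 clock genes were called higher in Dlx5CE-E12.5 cells and 9 and 6 further genes higher in Dlx5CE-E12.5 and Fgfr3CE-E12.5 cells. There are 3 and 2 libraries, and libraries of the same lineage differed by more than counting noise over the genes as a whole. *Dbp* and *Fbxl21* rest on few counts.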
